A study of Mus musculus with 9 samples.

Results

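NOD-like receptors and the inflammasome genes that act with them were followed in MCEC, an established endothelial cell line from mouse heart, whose RNA had been sequenced after Zbtb46 was reduced or raised. The 10 genes are Nod1, Nod2, Nlrx1, Nlrp3, Nlrp6, Pycard, Casp1, Casp4, Gsdmd and Il18, found by symbol in a table of 55487 genes. They were chosen from the family with fold changes of these same counts already known, from all 3 comparisons between groups. Their differences between groups are therefore described with their size and error and carry no test of their own.

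NOD-like receptors are cytosolic sensors of bacterial products, danger signals and disturbed cell state. NOD1 and NOD2 bind fragments of bacterial peptidoglycan and signal through the kinase RIPK2 to NF-kB, whereas NLRP3 and NLRP6 recruit the adaptor ASC (gene Pycard) and caspase-1 into an inflammasome. Caspase-1 matures the cytokine encoded by Il18 and, like the lipopolysaccharide-sensing caspase encoded by Casp4, cleaves gasdermin D (gene Gsdmd), whose freed end opens pores in the plasma membrane. NLRX1 sits at mitochondria and is known as a brake on innate signalling. In endothelium these genes are studied for their part in vascular inflammation.

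The study has 9 libraries, 3 each from cells labelled wild type (WT), from a Zbtb46 knockdown (KD) and from cells made to overexpress Zbtb46 (OE). Zbtb46 encodes a zinc finger transcription factor with a BTB domain. All groups are the same cell line. How knockdown and overexpression were brought about is not in the labels, nor whether the WT cells carried an empty vector, whether a group was 1 clone or whether the 3 libraries of a group came from separate cultures, so the spread between libraries may be technical.

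Total counts ran from 39491828 to 55745849 per library. Ribosomal RNA features took 7.44% to 17.3% of them in WT, 9.55% to 12.0% in KD and 14.4% to 18.2% in OE, so OE lay above KD without overlap. With these features left out, the genes of the set past the threshold were those given below in all 3 comparisons. A level is a count scaled by library size and TMM factor (CPM), given as mean ± SD over the 3 libraries of a group (n = 3). Zbtb46 itself was at 13.7 ± 0.623 CPM in WT, 11.2 ± 0.537 CPM in KD and 191 ± 2.67 CPM in OE, and the groups did not overlap. The reduction in KD, with a log2 fold change of -0.28 (SE 0.055, adjusted p = 0.00144 by edgeR's quasi-likelihood test, Benjamini-Hochberg adjusted), was small beside the rise of 3.81 in OE. The endothelial label rested on few defining markers. Of 12 endothelial markers 4 reached a mean of 1 CPM in WT, 4 in KD and 3 in OE, Erg was at 0 counts in every library, and Pecam1 and Cdh5 had means of at most 0.15 CPM in any group. The summed level of the 12 markers was 130 to 143 CPM in WT, 113 to 118 CPM in KD and 87.0 to 94.4 CPM in OE, most of it Eng. The 14 leukocyte and macrophage markers summed to 6.8 to 7.68 CPM, 7.44 to 8.11 CPM and 7.07 to 8.33 CPM, with C1qa and C1qb at 0 and Ptprc at a mean of at most 0.0288 CPM. Of these, 2 reached a mean of 1 CPM in each group. The 12 fibroblast and smooth muscle markers summed to 5110 to 5680 CPM, 4850 to 4920 CPM and 4040 to 4140 CPM, nearly all of it Col1a1. Its means were 5260 CPM in WT, 4770 CPM in KD and 4030 CPM in OE. Only 4 of these 12 markers reached a mean of 1 CPM in each group, as many as of the endothelial markers in WT and KD. The 8 epithelial markers, led by Krt14 and Krt19, summed to 966 to 1140 CPM, 1020 to 1050 CPM and 888 to 916 CPM, with Krt5 at 0. Among these, 3 reached a mean of 1 CPM in each group, and Epcam, Cdh1 and Cldn4 had means of at most 0.192 CPM in any group. The part of these markers in the differences below was not tested. In bulk libraries, fewer cells of a kind and less RNA per cell cannot be told apart.

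The start regions of the genes whose levels differed most are shown first, because these are the stretches from which the transcripts begin. RefSeq on GRCm38.p6 held a promoter window (250 bases before to 50 after an annotated start) for 9 of the 10 genes, with 13 windows in all. The Nlrp6 window is chr7:140920652-140920951 on the plus strand, the first Nod1 window is chr6:54972563-54972862 on the minus strand, the first Nlrx1 window is chr9:44268550-44268849 on the minus strand, and the Il18 window is chr9:50554450-50554749 on the plus strand. Capitals mark matches, on either strand, to the GC box GGGCGG, the TATA box TATAAA, the AP-1 motif TGANTCA, the cAMP response element TGACGTCA, the CCAAT box CCAAT or an NF-kB motif.
Nlrp6: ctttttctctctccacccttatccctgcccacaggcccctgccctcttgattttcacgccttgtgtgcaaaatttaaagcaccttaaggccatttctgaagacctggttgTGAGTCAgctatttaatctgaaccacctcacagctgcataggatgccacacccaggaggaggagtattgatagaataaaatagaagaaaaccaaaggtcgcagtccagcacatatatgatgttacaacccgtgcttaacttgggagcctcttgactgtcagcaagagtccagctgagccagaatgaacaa
Nod1: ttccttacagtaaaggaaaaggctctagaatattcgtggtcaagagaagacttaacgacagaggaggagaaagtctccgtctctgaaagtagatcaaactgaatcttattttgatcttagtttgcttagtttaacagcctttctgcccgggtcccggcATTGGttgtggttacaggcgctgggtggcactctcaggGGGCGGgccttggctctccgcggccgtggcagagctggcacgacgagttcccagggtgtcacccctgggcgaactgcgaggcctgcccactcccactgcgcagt
Nlrx1: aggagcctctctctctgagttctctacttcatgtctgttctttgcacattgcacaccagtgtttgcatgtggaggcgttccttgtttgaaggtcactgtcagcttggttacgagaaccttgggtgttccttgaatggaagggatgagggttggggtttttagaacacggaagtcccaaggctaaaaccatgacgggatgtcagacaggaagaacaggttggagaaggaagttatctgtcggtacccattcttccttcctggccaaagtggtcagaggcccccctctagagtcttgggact
Il18: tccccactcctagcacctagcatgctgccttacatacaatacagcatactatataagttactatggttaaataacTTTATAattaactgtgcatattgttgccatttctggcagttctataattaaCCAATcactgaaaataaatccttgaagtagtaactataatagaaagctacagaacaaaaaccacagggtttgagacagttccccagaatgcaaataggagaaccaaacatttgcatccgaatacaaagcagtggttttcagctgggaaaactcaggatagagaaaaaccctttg

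The Nlrp6 window held 1 match, an AP-1 motif beginning 140 bases before the start, and its GC content was 46.7%. AP-1 matches are in 7.81% of the 32851 RefSeq mouse promoter windows of the same length. The Nod1 window had a GC content of 54.7% and 15 CpG, beside medians of 52.7% and 7 over all windows. It held a GC box 54 bases and a CCAAT box 92 bases before the start, motifs found in 35.7% and 37.4% of all windows. The Il18 window, whose RefSeq start lies upstream of the GENCODE gene start, had a GC content of 36.7% and 1 CpG. It held a TATA box match on the opposite strand 175 bases and a CCAAT box 124 bases before the start, with TATA box matches in 13.6% of all windows. The Nlrx1 window held no match to any of the 6 motifs, which says only that these letters are not in it. The first Casp4 window, chr9:5308599-5308898, held 3 NF-kB matches, at 93, 92 and 39 bases before the start, of which the first and second overlap. NF-kB matches are in 6.93% of all windows. These matches are descriptions of sequence and were not tested as binding sites.

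Nod1 was the receptor of the set with the highest level per kilobase and was lower in OE. The gene lies on chromosome 6 (GRCm38, chr6:54923949-54972612, minus strand, GENCODE M21). Its level was 119, 122 and 124 CPM in the WT libraries, 127, 128 and 132 CPM in the KD libraries, and 83.5, 82.6 and 83.5 CPM in the OE libraries. All OE libraries lay far below the other 6, and the KD libraries lay just above all WT libraries. On the log2 scale the difference was -0.55 (SE 0.016) for OE against WT, -0.63 (SE 0.017) for OE against KD and 0.08 (SE 0.022) for KD against WT. The OE level was thus 31.7% below WT and 35.4% below KD. Of the 4 tested neighbours of Nod1, none was as low as Nod1 in OE against WT: Ggct, 9968 bases away, was at 0.33, Gars at 0.39, Znrf2 at -0.07 and Mturn at -0.20 on the log2 scale.

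Nod2, the sensor of muramyl dipeptide, was nearly absent (chr8:88647315-88688474, plus strand). It had 0, 0 and 1 counts in WT, 0 in every KD library, and 1, 2 and 0 counts in OE. These counts do not exceed the 3 that a count of 0 allows, so no difference was detectable at this depth. Nod1, by contrast, had 3757 to 7275 counts in each library.

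Nlrx1 was also lowest in OE (chr9:44252717-44268599, minus strand). Its level was 8.07, 7.38 and 7.41 CPM in WT, 5.5, 6.1 and 6.84 CPM in KD, and 4.43, 4.95 and 3.25 CPM in OE. The groups formed 3 steps with no overlap, WT highest and OE lowest. This gave log2 fold changes of -0.85 (SE 0.19) for OE against WT, -0.54 (SE 0.20) for OE against KD and -0.31 (SE 0.099) for KD against WT, the last not past the threshold used for all genes. Exons of Nlrx1 overlap those of the antisense gene Gm10686, whose mean was at most 0.262 CPM in any group, and the use of strand in counting is not given in the sources used here.

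Nlrp6 was undetected in WT and present in both KD and OE (chr7:140920902-140929192, plus strand). All 3 WT libraries had 0 counts. The KD libraries had 67, 33 and 50 counts, or 1.33, 0.829 and 1.02 CPM, and the OE libraries had 38, 51 and 36 counts, or 0.81, 1.03 and 0.8 CPM. Every KD and OE library was above every WT library, and KD and OE overlapped. Against a floor of 3 counts in each WT library, the level was at least 16.2-fold higher in KD and at least 13.4-fold higher in OE. OE and KD differed by -0.27 on the log2 scale (SE 0.22), with overlapping libraries. Because Nlrp6 was at 0 in WT, it could enter the fit across genes only through the groups in which it was present. Its nearest tested neighbour downstream, Pgghg, 12199 bases away, was present in every group and differed from WT by -0.26 in KD and -0.31 in OE, opposite in direction to Nlrp6. Psmd13, 22259 bases upstream, differed from WT by -0.06 in KD and 0.08 in OE.

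Nlrp3, the sensor of the best-studied inflammasome, was close to the detection limit (chr11:59541568-59566956, plus strand). It had 1, 0 and 0 counts in WT, 5, 2 and 0 in KD, and 10, 2 and 0 in OE. Each group held a library at 0, the groups overlapped, and the gene did not pass the filter on low counts. The higher OE value rested on 1 library.

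Pycard, the ASC adaptor that joins receptors to caspase-1, was scarce (chr7:127989708-127993867, minus strand). It had 7, 4 and 9 counts in WT, 19, 4 and 17 in KD, and 17, 23 and 5 in OE. The groups overlapped, and the largest difference, 1.10 on the log2 scale for OE against WT, had an SE of 0.64. Its exons overlap the antisense gene Gm45205, so its few counts cannot be assigned with certainty. Casp1, the caspase of the canonical inflammasome, was also near the detection limit (chr9:5298517-5307265, plus strand). It had 0, 6 and 2 counts in WT, 0 in every KD library, and 2, 4 and 6 in OE. WT overlapped both other groups, OE lay above KD, and all values lay near the floor of 3 counts, so no fold is given.

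Casp4, the sensor caspase of the non-canonical route, was measured in every library and begins 1563 bases after the end of Casp1 (chr9:5308828-5336783, plus strand). Its level was 7.54, 6.32 and 5.68 CPM in WT, 5.15, 5.22 and 4.36 CPM in KD, and 5.35, 5.07 and 6.78 CPM in OE. The KD libraries lay below all WT libraries, and OE overlapped both. Differences on the log2 scale were -0.41 (SE 0.14) for KD against WT, -0.18 (SE 0.17) for OE against WT and 0.22 (SE 0.15) for OE against KD. The KD difference was just past the threshold and was lost with DESeq2 size factors (-0.40), with limma-voom (-0.39) and in a fit of the KD and WT libraries alone (-0.41). With 1 library left out it was lost for WT replicate 1 (-0.29), for any of the KD replicates 1, 2 and 3 (-0.44, -0.45 and -0.33), and for OE replicate 1 or 2 (-0.40 each).

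Gsdmd, the pore-forming substrate of both caspases, was abundant in all groups and slightly lower in OE (chr15:75862327-75867408, plus strand). Its level was 42.1, 37.9 and 38.7 CPM in WT, 38.9, 37.8 and 39.8 CPM in KD, and 32.9, 32.3 and 31.5 CPM in OE. WT and KD overlapped, and all OE libraries lay below both. Fitted log2 fold changes were -0.29 (SE 0.050) for OE against WT and -0.27 (SE 0.028) for OE against KD, and -0.03 (SE 0.052) for KD against WT. The OE level was 18.5% below WT.

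Il18, which encodes the cytokine precursor, differed in opposite directions in KD and OE (chr9:50554827-50581840, plus strand). Its level was 7.78, 8.6 and 7.7 CPM in WT, 10.6, 10.4 and 11.0 CPM in KD, and 3.45, 2.77 and 2.42 CPM in OE. The groups formed 3 levels with no overlap, KD highest and OE lowest. The log2 fold change was -1.48 (SE 0.16) for OE against WT, -1.89 (SE 0.15) for OE against KD and 0.41 (SE 0.056) for KD against WT. The OE level was 64.1% below WT and the KD level 32.9% above it. The KD difference fell short of the threshold with library totals alone as scaling (0.37), without WT replicate 1 (0.39) and without KD replicate 3 (0.39).

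**Figure D1:**
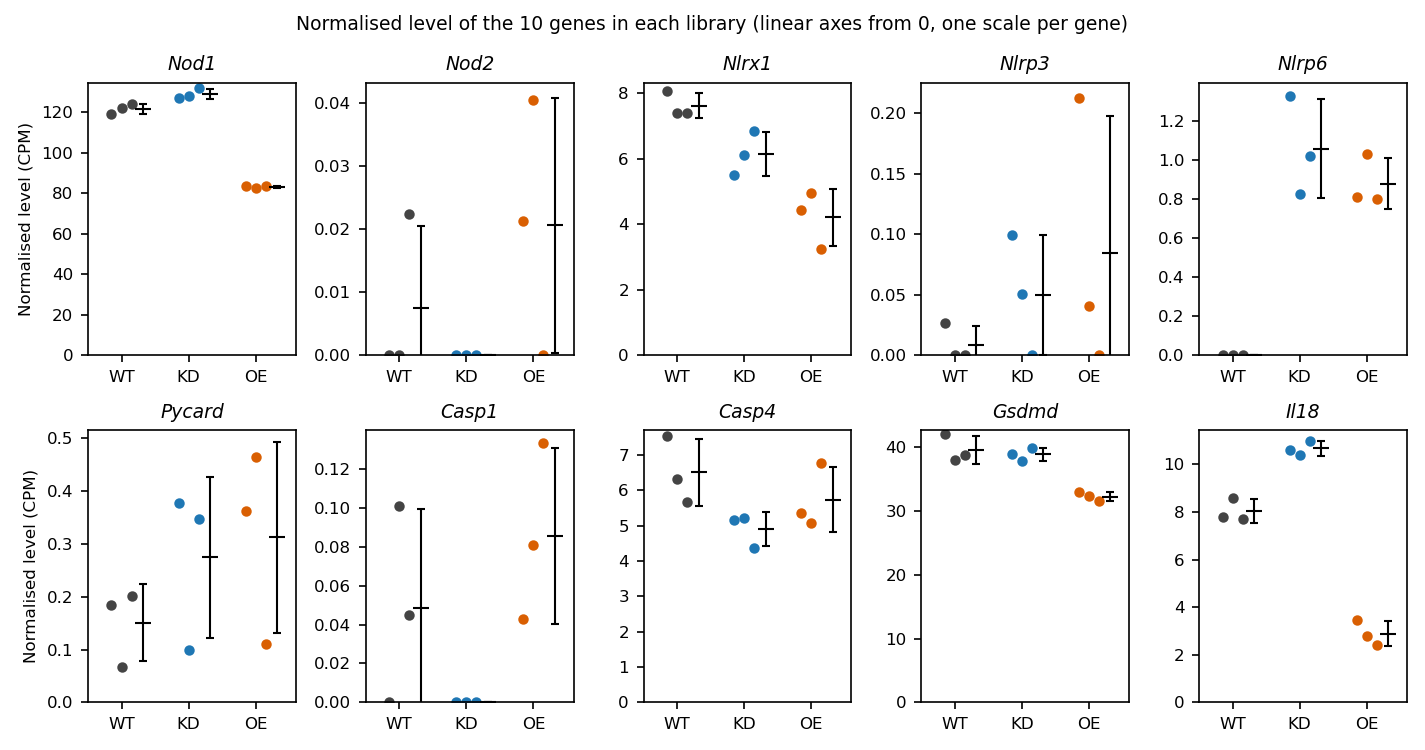
Normalised level (CPM, linear axes from 0, a scale of its own per gene) of the 10 genes in each of the 9 libraries. Points are libraries of WT, KD and OE, and the bar beside each group is the mean with 1 SD over 3 libraries. Nlrp6 is at 0 in all WT libraries and near 1 CPM in KD and OE, Nod1 and Il18 are lowest in OE, and the points of Nod2, Nlrp3, Pycard and Casp1 scatter across groups at low levels.

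Counts of genes past the threshold (edgeR's quasi-likelihood test, Benjamini-Hochberg adjustment over 16955 genes, adjusted p under 0.05) are a description, since the genes were chosen with these contrasts known. The filter on low counts was passed by 7 of the 10 genes, and Nod2, Nlrp3 and Casp1 were not tested. In KD against WT, 3 genes were past the threshold, Nlrp6 and Il18 higher and Casp4 lower. Over all genes tested the share was 21.3%, with 11.0% higher and 10.4% lower. In OE against WT, 5 genes were past it, Nlrp6 higher and Il18, Nlrx1, Nod1 and Gsdmd lower. The share over all genes was 36.4%, with 17.0% higher and 19.5% lower. In OE against KD, 4 genes were past it, all lower, namely Il18, Nlrx1, Nod1 and Gsdmd, beside 41.5% of all genes, with 19.4% higher and 22.1% lower. Nothing is read from these counts, because Nlrp6 passed the filter only through groups in which it was present. The comparisons also share libraries: both comparisons against WT use the same WT libraries. The median log2 fold change of the 7 genes was 0.08, -0.29 and -0.27 in the 3 comparisons, beside -0.0022, 0.002 and 0.01 over all genes tested. Against WT, Nlrp6 was the highest of the 7 genes also at its lower bound, so the bound could not move those medians. In OE against KD the median, -0.27, is the Nlrp6 value itself.

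Per kilobase of annotated exon, which allows levels of different genes to be compared, the order was Nod1, Gsdmd, Il18, Casp4 and Nlrx1, from highest to lowest, in all groups. In WT their levels were 24.0 ± 0.422, 16.6 ± 0.953, 7.78 ± 0.487, 1.76 ± 0.254 and 1.32 ± 0.0679 CPM per kb, and no neighbours in that order overlapped. In KD, Casp4 (1.32 ± 0.128) and Nlrx1 (1.07 ± 0.117) overlapped, and Il18 was at 10.3 ± 0.286 CPM per kb beside 16.3 ± 0.419 for Gsdmd. In OE, Nod1 was at 16.4 ± 0.106 and Gsdmd at 13.6 ± 0.295, with no overlap, and Il18 was at 2.79 ± 0.509 CPM per kb. Nlrp6 came next, at 0.209 ± 0.0498 CPM per kb in KD and 0.173 ± 0.0256 in OE. Below it Pycard, Casp1, Nlrp3 and Nod2 were each at a mean of at most 0.0823 CPM per kb in any group. With the longest annotated transcript in place of all exons, Casp4 in WT was at 3.43 CPM per kb and Nlrx1 at 2.08. Nod1, Nlrx1, Casp4, Gsdmd and Il18 were thus measured in every library, whereas Pycard and Casp1, the adaptor and the caspase of the canonical inflammasome, were near the detection limit.

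Il18, Nlrx1, Casp1 and Casp4 lie on chromosome 9, where many genes differed together. Il18 and Nlrx1 share a window of 20 Mb with 204 tested genes, whose median log2 fold change was 0.16 for KD and -0.41 for OE, each against WT, and -0.53 between OE and KD. Of those 204 genes, 59.8% were past the threshold in OE against WT, beside 36.4% of all genes. In OE against WT, 9 of the 204 genes were at or below the Il18 value and 28 at or below the Nlrx1 value. The nearest tested gene on one side of Il18, Pts, 26103 bases away, was at -0.78 (adjusted p = 0.000169, the quasi-likelihood test of edgeR, Benjamini-Hochberg adjusted) in OE against WT and 0.35 (adjusted p = 0.0666) in KD. On the other side, Sdhd, 14517 bases away, was at -0.41 and 0.22, with adjusted p = 4.68e-07 and 0.00146 by the same edgeR test. Timm8b, 22070 bases away, was at -0.40 (adjusted p = 0.000279, same test) in OE and -0.01 in KD. In OE all 3 neighbours were thus lower, as Il18 was, and by less.

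With the window medians taken out, the Il18 log2 fold change was -1.07 for OE against WT and -1.35 between OE and KD. Both were still past the threshold, and 0.29 between KD and WT was not. These calls and those that follow describe genes chosen with their fold changes known and are no test of them. Nlrx1 became -0.44 in OE against WT, still past the threshold, and -0.01 in OE against KD, no longer past it. In KD against WT, Nlrx1 became -0.43 and moved past the threshold. The window of Casp4 holds 66 tested genes, with medians of 0.16, -0.18 and -0.37. Without them Casp4 was at -0.56 between KD and WT, 0.01 between OE and WT and 0.57 between OE and KD, the last now past the threshold. Nod1, on chromosome 6, kept -0.49 and -0.66 in OE against WT and against KD, and its KD value became 0.16, past the threshold.

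**Figure D2:**
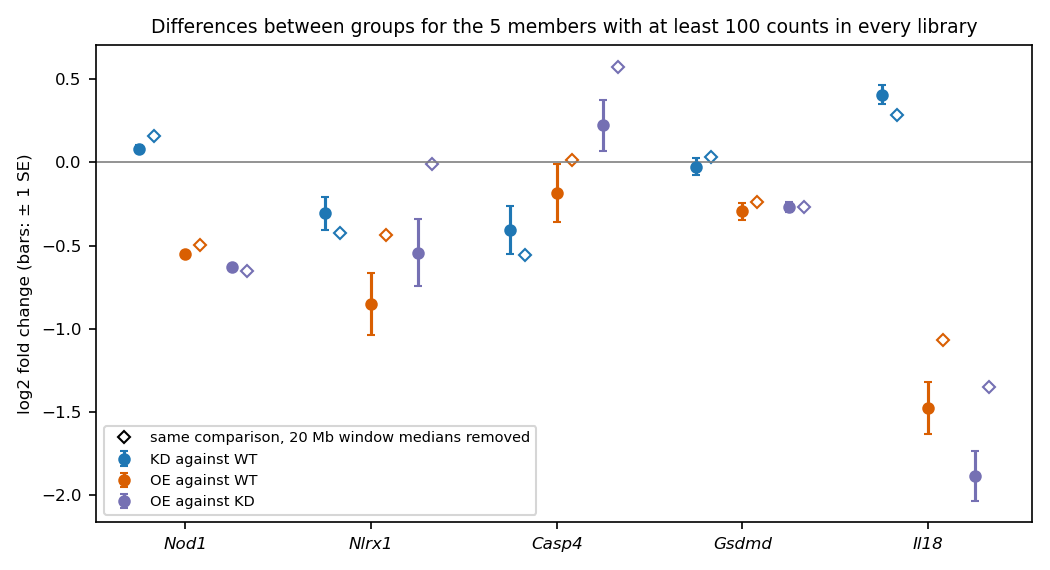
The log2 fold change (vertical axis) of the 5 genes whose count was never below 109, for KD against WT, OE against WT and OE against KD. Filled points are the fitted values with bars of 1 SE, and open diamonds are the same comparison with the medians of 20 Mb windows removed. Il18 has the lowest filled points, at -1.48 and -1.89, and its diamonds lie closer to 0, whereas those of Nod1 and Gsdmd lie near the filled points.

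**Figure D3:**
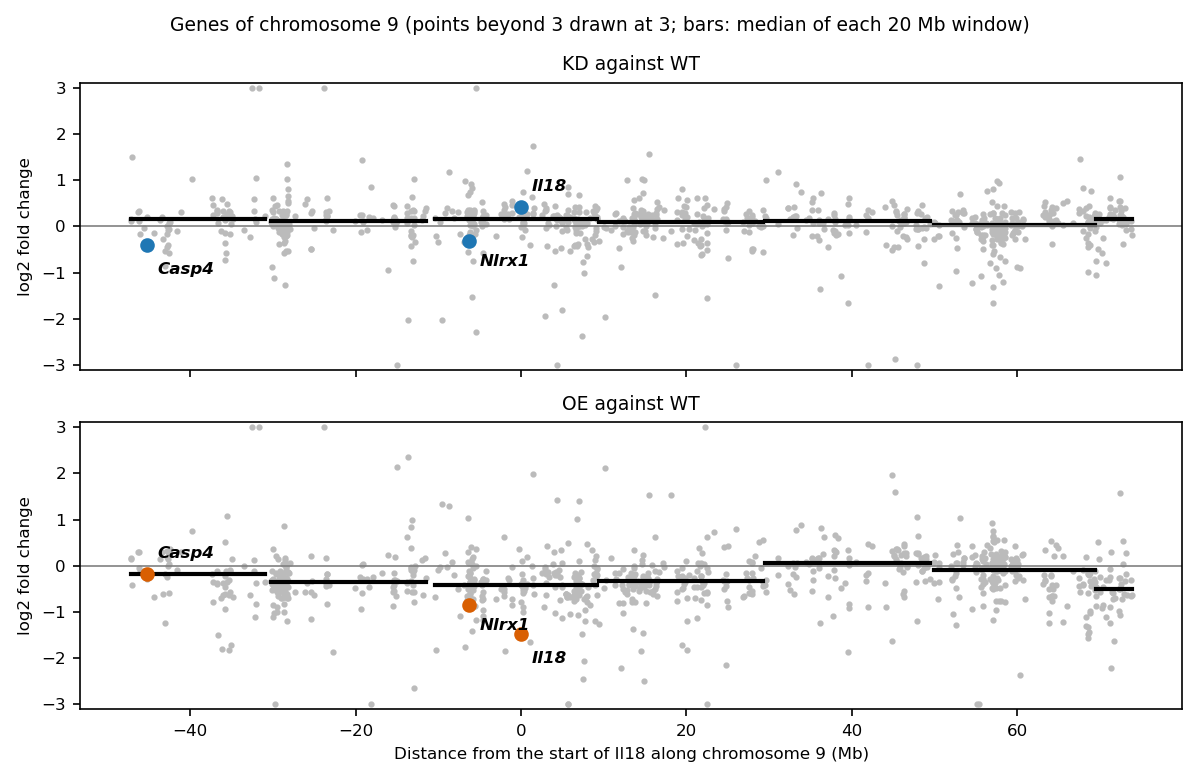
Log2 fold change of the tested genes of chromosome 9 by distance from the start of Il18 in Mb, for KD against WT (top) and OE against WT (bottom). Grey points are genes, drawn at 3 or -3 where they lie beyond, black bars are the medians of 20 Mb windows, and the coloured points are Casp4, Nlrx1 and Il18. The bar at Il18 is at 0.16 in the top panel and -0.41 in the bottom panel, where Il18 lies at -1.48.

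The genes most like each of the differing ones were found by Pearson's r of log2 CPM over the 9 libraries among 11477 candidates whose mean reached 1 CPM in any group. These r values share the same libraries and group means and are given as a description. Nlrp6 was most like Olfr1512, Actc1 and Med12l, each with r = 0.994. Their means in WT, KD and OE were 0, 2.54 and 2.05 CPM for Olfr1512, 0, 7.21 and 5.39 CPM for Actc1, and 0.0112, 15.4 and 13.7 CPM for Med12l. These genes, on chromosomes 14, 2 and 3, were at or near 0 in WT like Nlrp6 on chromosome 7. Il18, on chromosome 9, was most like Itih2 (r = 0.998), Sorbs3 (r = 0.994) and Slc39a8 (r = 0.994), on chromosomes 2, 14 and 3. Nod1, on chromosome 6, was most like Tmem108, Cdh11 and Lrrn4, on chromosomes 9, 8 and 2, each with r = 0.998. The OE levels of these 3 genes were 139, 138 and 292 CPM beside 222, 454 and 687 CPM in WT. Nlrx1 was most like Mfsd10 (r = 0.973), Eldr (r = 0.971) and Zc4h2 (r = 0.968). Gsdmd was most like Rabl6 (r = 0.980), Ctu2 (r = 0.977) and Cox7c (r = 0.975). Casp4 had the weakest likeness, with Gcdh (r = 0.932), Pgpep1 (r = 0.894) and Stom (r = 0.882).

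The rest of the pathway was read from 100 further genes in 6 lists, of which 9 were at 0 in every library and 66 passed the filter. Adjusted p-values are from the quasi-likelihood test of edgeR, Benjamini-Hochberg adjusted over all genes tested. The lists were drawn up with earlier results of these data known, and the genes named from them include those with the smallest p. The p-values printed for them are therefore a description. In KD against WT 4 rose and 14 fell, or 27.3% of those tested beside 21.3% of all genes. In OE against WT 8 rose and 19 fell, or 40.9% beside 36.4%. In OE against KD 14 rose and 22 fell, or 54.5% beside 41.5%. The medians of the 66 genes were 0.02, -0.05 and -0.0066, close to those of all genes. Nothing particular to the pathway is read from these shares. The counts given for each list below stand beside the same shares of all genes, and nothing particular to a list is read from them. Unless said otherwise, a pathway gene named below as having risen or fallen kept its call in all 20 alternative settings that ask for no minimum fold change.

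Among 24 other NOD-like receptors only 6 passed the filter and 7 were at 0 in every library. None rose and 3 fell against WT in each of KD and OE: Naip2 and Nlrp4f in both, Naip6 in KD and Nlrc3 in OE. In OE against KD 3 rose (Naip6, Nlrc5 and Nlrp4f) and 2 fell (Naip2 and Nlrc3). The 3 that rose had means of at most 0.901 CPM in OE. Calls held in 16 of 19 alternatives for Naip6 in KD and in 14 of 18 in OE against KD. For Nlrc5 the call held in 19 of 20. Nlrp4f held in 9 of 19 in OE against WT and otherwise in all alternatives that tested it. Naip2, which pairs bacterial secretion-system proteins with NLRC4, fell from 6.89 ± 0.772 CPM in WT to 4.18 ± 0.37 CPM in KD (log2 fold change -0.72, SE 0.12, adjusted p = 0.00127, edgeR). In OE it was at 0.341 ± 0.0821 CPM (log2 fold change against WT -4.33, SE 0.20, adjusted p = 6.52e-13, edgeR). The Naip genes are related copies side by side on chromosome 13, so counts could have been split among them. Naip1, Naip5 and Naip6 each had a mean of at most 0.341 CPM in any group, and such a split was not tested. Nlrp4f, a low-level member of the family, was at 0.493 CPM in WT and 0.0167 CPM in KD. At the floor of 3 counts per KD library its level was at most 0.133 of WT. It passed the filter on low counts only through WT, where it was highest, so no p is given. Nlrc3, a negative regulator chosen here after its values were seen, fell in OE from 4.69 ± 0.331 to 2.9 ± 0.256 CPM (-0.69, SE 0.094). For that reason its p is left out.

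In the list of NOD1 and NOD2 signalling, 21 of 23 genes were tested: 1 rose and 3 fell in KD, 2 rose and 2 fell in OE against WT, and 3 rose and 5 fell in OE against KD. Cyld, a deubiquitinase that limits NF-kB signalling and lies 8554 bases from Nod2, rose in KD from 83.0 ± 8.47 to 106 ± 1.42 CPM (0.34, SE 0.085, adjusted p = 0.000172, edgeR). Tab1, a partner of the kinase TAK1, fell in both KD (-0.23, SE 0.052, adjusted p = 0.00582, edgeR) and OE (-0.31, SE 0.056, adjusted p = 0.000192, edgeR). Erbin, which binds NOD2, fell in OE by 0.48 on the log2 scale (SE 0.13, adjusted p = 0.00155, edgeR), and by 0.21 with window medians removed. The TAK1 gene Map3k7 and its partner Tab2 were at 154 and 142 CPM in WT, 153 and 146 CPM in KD, and 170.2 and 151 CPM in OE. Map3k7 was higher in OE than in WT (0.14, SE 0.055, adjusted p = 0.0165, edgeR), a call that held in 15 of 20 alternatives. It was also higher in OE than in KD (0.16, SE 0.016, adjusted p = 0.00746, edgeR), which held in 19. Tab2 had no difference past the threshold. Map3k7 and Tab2 both differed by less than Nod1 did.

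Of 20 inflammasome sensors and regulators outside the NOD-like family, 15 were tested: 2 rose and 2 fell in KD, 3 rose and 5 fell in OE against WT, and 3 rose and 6 fell in OE against KD. Of the 5 lower in OE than in WT, Panx1 (-0.36), Pstpip1 (-0.66) and Casp12 (-0.29) lie on chromosome 9. With window medians removed they were at -0.16, -0.25 and -0.09, and only Pstpip1 kept its call. The calls of Panx1, Casp12 and Aim2 held in 19, 15 and 7 of the 20 alternatives. Txnip, a thioredoxin-binding protein known to bind NLRP3, rose in OE from 27.2 ± 1.13 to 51.5 ± 4.43 CPM (0.92, SE 0.081, adjusted p = 1.46e-09, edgeR). P2rx7, the ATP-gated channel upstream of NLRP3, fell in KD from 19.9 ± 0.472 to 15.3 ± 1.64 CPM (-0.38, SE 0.089, adjusted p = 0.00117, edgeR) and was at 20.6 ± 0.367 CPM in OE. Gbp2, an interferon-induced GTPase chosen after its values were seen and so given without p, fell in OE from 7.72 ± 0.486 to 3.34 ± 0.489 CPM (-1.21, SE 0.13). The kinase gene Nek7, which NLRP3 needs, was at 71.3, 78.7 and 72.7 CPM with no difference past the threshold, and Mlkl, of necroptosis, was at 56.8, 58.5 and 56.9 CPM. Txnip, P2rx7 and Nek7, which act on or with NLRP3, were measured in libraries in which Nlrp3 itself had at most 10 counts.

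Of 9 genes of pyroptosis execution other than Gsdmd, 4 were tested and 2 were at 0 in every library. In KD 1 fell, Ninj1 (-0.21, SE 0.10), a call lost with limma-voom, in a fit of KD and WT alone, without WT replicate 1 or 3 and without any 1 KD replicate (range over the alternatives -0.29 to -0.11). In OE 1 rose and 2 fell against each other group. Ninj1, which ruptures the membrane after gasdermin pores form, fell in OE from 70.3 ± 8.4 to 52.1 ± 0.922 CPM (-0.43, SE 0.10, adjusted p = 2.89e-05, edgeR). Gsdme, the gasdermin cut by caspase-3, rose in OE from 3.37 ± 0.24 to 4.84 ± 0.103 CPM (0.53, SE 0.061, adjusted p = 0.00508, edgeR). Gsdmd and Gsdme thus differed in opposite directions in OE.

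In the interleukin-1 family list, 14 of 18 genes were tested: 1 rose and 3 fell in KD, none rose and 6 fell in OE against WT, and 1 rose and 6 fell in OE against KD. Il33, an alarmin, fell from 38.8 ± 2.54 CPM in WT to 28.6 ± 1.09 CPM in KD (-0.44, SE 0.064, adjusted p = 5.89e-05, edgeR) and to 11.7 ± 0.707 CPM in OE (-1.73, SE 0.074, adjusted p = 9.98e-14, edgeR). Il33 and Il18, both ligands of the family, were thus lowest in OE but differed in direction in KD. Il1rap, the shared receptor subunit, rose in KD (0.30, SE 0.084, adjusted p = 0.00225, edgeR) and fell in OE (-0.25, SE 0.076, adjusted p = 0.0067, edgeR), the directions of Il18. Il18rap, a subunit of the receptor for the Il18 product, and Myd88, the adaptor of these receptors, were chosen after their values were seen. They are therefore given without p. Il18rap fell in OE from 1.74 ± 0.0275 to 0.427 ± 0.117 CPM (-2.01, SE 0.21). Myd88, on chromosome 9, fell in OE from 17.9 ± 1.56 to 8.85 ± 0.39 CPM (-1.01, SE 0.082), and by 0.92 with window medians removed. Neither differed past the threshold in KD. Il1a, Il1b and Il18r1 did not pass the filter on low counts.

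All 6 listed partners of NLRX1 were tested: 2 fell in KD, 2 rose and 1 fell in OE against WT, and 3 rose and 1 fell in OE against KD. Mavs, the mitochondrial adaptor that NLRX1 binds, fell in OE from 29.1 ± 0.791 to 24.1 ± 1.08 CPM (-0.27, SE 0.043, adjusted p = 0.00129, edgeR). Tufm, another mitochondrial partner, was higher in OE than in KD (0.30, SE 0.045, adjusted p = 0.0001, edgeR), at 102 ± 4.96 against 83.0 ± 1.88 CPM. Uqcrc2, a respiratory chain subunit that binds NLRX1, was at 65.1, 64.7 and 64.4 CPM. Traf3, an adaptor of the same route, rose in OE from 65.1 ± 3.51 to 74.8 ± 0.602 CPM (0.20, SE 0.045, adjusted p = 0.00238, edgeR), a call lost with library totals alone. The genes that fell in KD were Tufm and Sting1, each by 0.18 on the log2 scale, calls that held in 16 and 13 of the 20 alternatives. Tufm was lost without WT replicate 3 or any 1 KD replicate, and its range over all 20 alternatives was -0.21 to -0.11. Sting1 was lost, among others, without WT replicate 3, without KD replicate 1 or 2 and with window medians removed. Its range over all 20 was -0.22 to -0.12. The partners thus differed in both directions in OE, and Uqcrc2 had no difference past the threshold.

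**Figure D4:**
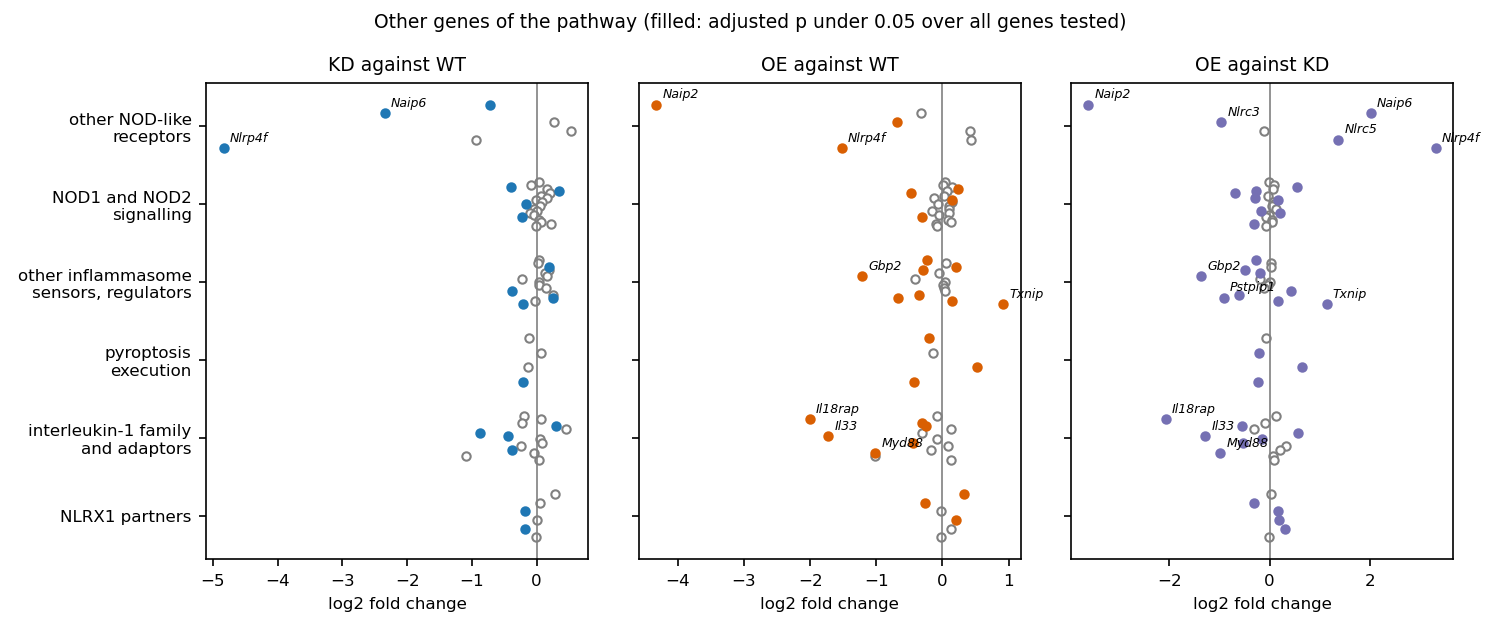
The log2 fold change (horizontal axis) of the 66 tested pathway genes outside the 10, by list (vertical axis), for KD against WT, OE against WT and OE against KD. Filled points have an adjusted p under 0.05 over all genes tested, open points do not, and genes called with a log2 fold change beyond 0.9 in size are named. Naip2 lies at -4.33 in OE against WT and Il33 at -1.73, while most genes lie close to 0.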

How the data were processed

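Per the labels' protocols, poly-A RNA was primed with random hexamers and read from both ends. The authors deposited raw counts, whole numbers by Ensembl identifier, as the values show. The submitters' processing notes name GRCm38 and mm10, and the aligner, counter, annotation and use of strand are not given in the sources used here. Of 55774 rows, 455 hold 168 genes more than once, each counted once. Every column matched 1 sample.

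The 10 genes and all gene lists were chosen with earlier results of these data known. Counts were filtered with filterByExpr, scaled with TMM and fitted over the 9 libraries with edgeR 4.0.16 (quasi-likelihood, robust, group as the only term) in R 4.3.3, with Benjamini-Hochberg adjustment and a threshold of 0.05. Standard errors use group SDs of log2 CPM with a prior count of 2. A fold against a group at 0 uses 3 counts per library. Positions and exon lengths are from GENCODE M21 on GRCm38, and windows of 20 Mb with at least 10 tested genes gave the medians. Named pathway genes are, per list, those with the smallest p in each comparison and up to 4 others with the highest levels of at least 10 CPM; other names are marked as chosen later. Alternatives were other scalings and filters, DESeq2 1.42.0, limma-voom (limma 3.58.1), fits of the groups compared alone, the replicate block, window medians removed, a minimum fold change of 1.5, each library left out, and the longest transcript as length. The scripts were tested on simulated data.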

Additional observations from a re-analysis of the deposited data

How the results depend on the processing

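The counts of the 10 genes past the threshold were 3 for KD and 5 for OE, each against WT, and 4 between OE and KD. Requiring a fold change of 1.5 left 1, 2 and 1 of them, and 1, 6 and 9 of the 18, 27 and 36 other pathway genes, while all genes called went from 3617, 6174 and 7031 to 274, 794 and 1331. Leaving out each library in turn gave 1 to 3 of the 10 genes in KD, the 1 without WT replicate 1 and without KD replicate 3, and 5 and 4 throughout in the others. It gave 11 to 24, 20 to 28 and 28 to 37 other pathway genes, the 11 without KD replicate 2. The cause was not tested beyond the loss of samples and the stricter threshold. The other 117 recomputed counts stayed within 1.5 times the first, and no value reversed direction past the threshold.

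No pairing of the libraries by replicate number was visible in the counts, which cannot exclude that same-numbered libraries were handled together. Same-numbered libraries of different groups had correlations of -0.197 to 0.097 over 10282 genes, others -0.106 to 0.153, and 2 of 9 libraries correlated best with their own number in both other groups. With the replicate number as a block, 2, 5 and 4 of the 10 genes and 3574, 6111 and 6969 of all genes were past the threshold, and Casp4 in KD was the gene lost. Leaving out 1 library of a group assumes that the remaining ones vary like the rest.

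At 39491828 to 55745849 counts per library, Nod2, Nlrp3, Casp1 and Pycard had at most 23 counts in any library, which limits what could be detected. Libraries of a group differed by 2.75 to 9.56 times sampling noise, so none was taken for a repeat deposit of another; this does not show separate cultures. Groups of 3 were not examined for single libraries that stand apart.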
